A study of Mus musculus with 4 samples.

Results

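Class II nuclei are bone marrow nuclei that carried transcripts of the MHC class II machinery without transcripts of 5 chosen genes of B cells and plasmacytoid dendritic cells. They were chosen by their RNA: a nucleus was taken when its UMIs (unique molecular identifiers, which count captured transcripts) of Cd74, H2-Aa, H2-Ab1 and H2-Eb1 summed to 2 or more and it had 0 UMIs of each of Ebf1, Pax5, Ms4a1, Bank1 and Siglech. Among the nuclei with at least 200 detected genes and 1000 to 50000 ATAC counts, 68 of 13619 met this rule, 36 of 5905 in library 1 and 32 of 7714 in library 2. The class II levels of these nuclei are therefore a description, and the comparisons rest on the other transcripts and on the ATAC counts, which the rule did not use.

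The study asked how experimental periodontitis, induced by a silk ligature around molar teeth (Lig, day 14), changes haematopoietic stem and progenitor cells (HSPCs) relative to unligated control mice (Ctrl, day 14). Nuclei of sorted Lin-cKit+ bone marrow cells of C57BL/6 wild type young adult male mice were profiled by 10x multiome sequencing, which reads nuclear RNA and open chromatin (ATAC) from the same nucleus. Each group was 1 pool of mice, so there is no replicate of a group. The barcodes carry the suffix 1 or 2, here called library 1 and library 2, and the labels do not say which suffix is Ctrl and which is Lig. The libraries were therefore put in no group and the effect of ligation on class II nuclei was not analysed. Each comparison is between class II nuclei and all other kept nuclei of the same library, without a test, and a result is described as seen in both libraries or in 1 of them. Intervals are exact 95% intervals that cover counting error only.

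Conventional dendritic cells take up antigen, load its peptides on MHC class II molecules and show them to CD4+ T cells. They arise in the bone marrow from Flt3-dependent progenitors under factors that include Irf8, Batf3 and Id2, and they divide into a cDC1 arm, which cross-presents and carries Clec9a and Xcr1, and a cDC2 arm, which is marked by Sirpa and relies on Irf4 and Notch2. MHC class II genes are switched on by the coactivator Ciita, which acts through conserved promoter elements called the X and Y boxes, and they are also used by B cells and plasmacytoid dendritic cells.

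The promoters of H2-Aa and H2-Eb1, which encode an alpha and a beta chain of MHC class II, are shown because their chromatin in class II nuclei is described below. Each run is the 250 bases before the RefSeq start of the gene (build GRCm38.p6), 5′ to 3′ on the strand of the gene. The capitals mark the letters CTGATTGG of the Y box, searched on both strands.
H2-Aa promoter, chr17:34287824-34288073, minus strand: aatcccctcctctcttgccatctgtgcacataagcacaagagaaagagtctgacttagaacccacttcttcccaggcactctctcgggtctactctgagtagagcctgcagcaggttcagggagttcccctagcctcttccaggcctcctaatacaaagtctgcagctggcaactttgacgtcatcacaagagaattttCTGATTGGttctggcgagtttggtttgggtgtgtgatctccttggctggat
H2-Eb1 promoter, chr17:34305617-34305866, plus strand: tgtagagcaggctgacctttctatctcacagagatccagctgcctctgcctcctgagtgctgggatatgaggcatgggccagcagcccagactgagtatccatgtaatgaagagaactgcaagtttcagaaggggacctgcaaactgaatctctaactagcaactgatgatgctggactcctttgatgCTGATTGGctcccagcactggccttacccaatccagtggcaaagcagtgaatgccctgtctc
The match began 51 bases before the start of H2-Aa and 62 bases before the start of H2-Eb1. The same letters were in 4.10% of 32851 RefSeq promoter windows of 300 bases. The exact X1 box letters GCAACAG were in 5.48% of them and in neither of the printed runs. Upstream of the Y box letters, the runs held GCAACTT (H2-Aa) and GCAACTG (H2-Eb1), which differ from GCAACAG only near the end. A search for exact letters cannot tell whether a promoter lacks an X box.

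Further stretches, from peaks of open chromatin that were more open in class II nuclei, are shown with the matches found at their centres. Both are read from the plus strand of GRCm38. The window between H2-Aa and H2-Eb1 lies in an intron of the predicted gene Gm20513, 5896 bases upstream of H2-Aa, and its capitals mark PU.1 letters (GAGGAAGT, here on the minus strand).
H2-Aa upstream peak, chr17:34293569-34293868: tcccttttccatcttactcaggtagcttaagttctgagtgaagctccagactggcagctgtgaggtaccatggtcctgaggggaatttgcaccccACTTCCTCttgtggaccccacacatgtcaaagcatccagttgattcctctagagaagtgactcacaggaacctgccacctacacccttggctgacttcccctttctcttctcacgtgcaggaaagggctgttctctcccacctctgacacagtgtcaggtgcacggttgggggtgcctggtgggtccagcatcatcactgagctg
The window in an intron of Wdfy4, which encodes a protein needed for cross-presentation by cDC1, has IRF letters (GAAANNGAA) in capitals.
Wdfy4 intron peak, chr14:33168705-33169004: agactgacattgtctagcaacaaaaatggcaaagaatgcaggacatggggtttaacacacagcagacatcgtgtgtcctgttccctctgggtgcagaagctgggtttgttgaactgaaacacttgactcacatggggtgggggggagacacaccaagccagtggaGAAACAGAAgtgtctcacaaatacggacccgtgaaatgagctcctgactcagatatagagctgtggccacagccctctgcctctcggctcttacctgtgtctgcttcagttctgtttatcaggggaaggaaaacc
The H2-Aa upstream window also held AP-1 (TGANTCA) and E-box (CAGCTG) letters, and the Wdfy4 window held the AP-1 letters at 2 places. A match describes the letters of the window and nothing about binding.

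Class II nuclei were 0.610% (0.427 to 0.843) of kept nuclei in library 1 and 0.415% (0.284 to 0.585) in library 2. Of the 69 and 42 kept nuclei with 2 or more class II UMIs, 27 and 9 had been left out for a UMI of a B cell gene and 6 and 1 for Siglech alone. Their depth was not high: the median was 1432 and 1317.5 UMIs against 1645 and 1517.5 in other nuclei, and 20414 and 10004 ATAC counts against 19460 and 16307. When each nucleus was thinned to 1000 UMIs and shallower nuclei were left out (1040 and 1145), the share was 0.555% (0.366 to 0.806) and 0.198% (0.105 to 0.338), against 0.658% and 0.381% of the same nuclei before thinning. Genes of the ribosomal locus gave 43.0% and 53.2% of the UMIs of all kept nuclei. Thinned nuclei of library 2 thus held fewer UMIs of other genes, and the 2 thinned shares are not at equal depth for them. The 2 libraries shared 146 barcodes, 72 of them kept, and none of these was a class II nucleus.

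Free RNA in droplets can give a UMI to a nucleus that does not use the gene. Of kept nuclei without UMIs of the excluded genes, 3.16% and 2.03% had at least 1 class II UMI and 0.855% and 0.467% had at least 2. Erythroid reference nuclei, which should lack class II and had 2 or more UMIs of erythroid genes, had at least 1 class II UMI in 2 of 65 (3.08%, 0.375 to 10.7, median depth 2205 UMIs) and 0 of 20 (which allows up to 15%, median depth 1693 UMIs). None had 2 or more, which allows up to 4.62% and 15%. These limits for a count of 0 are 3 counts of the total, and not the exact interval. The share of nuclei with at least 1 UMI, which includes the class II nuclei, was thus near the share in erythroid nuclei of library 1. These erythroid nuclei were deeper than other nuclei of library 1 (median 2205 against 1645 UMIs), so the 2 shares are not at equal depth. For 2 or more UMIs the few erythroid nuclei set only these upper limits.

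The 4 genes that chose the nuclei encode the invariant chain (Cd74), which guides class II molecules to the loading compartment, and the alpha and beta chains that bind peptide. Class II nuclei held 133 and 84 UMIs of them in all. Cd74 gave 69 UMIs in 29 of 36 nuclei and 37 UMIs in 24 of 32 nuclei. H2-Aa gave 30 UMIs in 19 nuclei and 18 in 13, H2-Ab1 gave 25 in 18 and 15 in 12, and H2-Eb1 gave 9 in 9 and 14 in 10. Most nuclei were thus chosen on more than 1 gene: 9 and 9 nuclei had UMIs of a single gene, 16 and 19 of 2 genes, 10 and 4 of 3 genes, and 1 and 0 of all 4.

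Most nuclei also lay close to the threshold. The sum was exactly 2 in 13 and 22 nuclei, 3 to 4 in 15 and 8, 5 to 9 in 6 and 2, and 10 or more in 2 and 0, with a highest value of 13 and 9. Just outside the threshold, 97 and 107 nuclei had a sum of 1 and no UMI of the excluded genes. For the coactivator Ciita, which was no part of the rule, these nuclei held 1 UMI and 5 UMIs, and the nuclei at a sum of 2 held 0 UMIs (13 nuclei) and 6 UMIs (22 nuclei).

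Ciita was the gene furthest above its expected count among those that passed the observed over expected call defined here. Class II nuclei held 7 UMIs in 7 nuclei (19.4%) of library 1 and 9 UMIs in 8 nuclei (25%) of library 2, while 0.307% and 0.312% of other nuclei had a UMI. The erythroid reference nuclei had 0. The nuclei left out for a B cell gene also held Ciita. They had 5 UMIs in 3 of 27 nuclei of library 1 and 1 UMI in 1 of 9 of library 2. Against the 0.199 UMIs expected from the level in other nuclei, the Ciita UMIs of class II nuclei were 80.4-fold (46.0 to 131). The expected count is the total of the class II nuclei multiplied by the share of the gene in other nuclei of the same library, summed over both libraries. A gene was called when it reached 4-fold over this count with 5 or more UMIs and at least 1 in each library, among genes with 30 or more UMIs over all kept nuclei. By this rule, which was added after the data were seen, 123 of 11767 genes were called (1.05%). With 4 or more class II UMIs required, 50 genes were called and 24 of them were among the 123, and with at least 500 genes per nucleus 56 were called, 40 of them among the 123.

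The genes that serve class II loading were above their expected counts as a list (107 UMIs, 5.68-fold, 4.65 to 6.86), and 5 of the 15 that could be called were called. Their summed level was 1277 CPM (UMIs scaled to the same library total) in class II nuclei and 201 CPM in other nuclei of library 1, and 814 and 171 CPM in library 2. Beside Ciita, the called genes were Cst3, a cysteine protease inhibitor (31 and 13 UMIs, 7.01-fold, 5.09 to 9.41), March1, a ubiquitin ligase that directs turnover of surface class II (11 and 5 UMIs, 20.5-fold), H2-DMb1, a chain of the peptide editor H2-DM (3 and 2 UMIs, 6.05-fold), and Ctss, the protease that trims the invariant chain (5 and 3 UMIs, 5.52-fold). Not called were H2-DMa, the partner of H2-DMb1 (1 and 1 UMIs), Ctsh (6 and 0) and the thiol reductase Ifi30 (0 and 4). The factors Rfxap and Rfxank and the modulator chain H2-Ob were at 0 UMIs in class II nuclei, and Rfx5 had 0 and 1. Over all 6593 genes with at least 1 expected UMI, the median was 0.926-fold and 44.5% were above expected.

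The cDC1 list was also above its expected count in both libraries. Its 23 genes gave 155 and 49 UMIs where 52.8 were expected in all (3.86-fold, 3.35 to 4.43), at 2870 against 669 CPM in library 1 and 1049 against 357 CPM in library 2. Of 13 genes that could be called, 5 were. Wdfy4 gave the most UMIs of them (54 and 16, 4.13-fold, 3.22 to 5.21), and the others were Ifi205, a gene of the interferon-inducible p200 family (6 and 4 UMIs, 52.2-fold), the lysosomal amidase Naaa (5 and 2, 21.2-fold), the small GTPase Rab7b (4 and 4, 19.6-fold) and the inhibitory receptor Btla (6 and 1, 7.89-fold), which the B lineage list holds as well. Irf8, the factor on which cDC1 depend, had 32 and 9 UMIs where 11 were expected (3.71-fold) and was under the 4-fold limit. The lectin receptor Clec9a had 4 and 1 UMIs, but its 23 UMIs over all kept nuclei were under the minimum of 30. Several cDC1 genes had UMIs in library 1 alone, among them Cadm1 (7 UMIs in 2 nuclei) and Batf3 (4). The defining genes Xcr1, Itgae and Tlr3 were at 0 UMIs in both libraries.

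The cDC2 list was 2.76-fold over expected (74 UMIs, 2.17 to 3.47), and 3 of its 14 genes that could be called were called. These were the Notch receptor Notch2 (20 and 8 UMIs, 4.06-fold), the calcium-binding protein S100a4 (7 and 2, 15.2-fold) and the inhibitory receptor Cd300a (5 and 1, 6.73-fold). Sirpa had 2 and 3 UMIs, Cd4 had 4 in library 1 alone, and Irf4, Clec10a, Mgl2, Esam and Cd209a were at 0. The list shared by both arms was 1.65-fold (212 UMIs, 1.44 to 1.89) with 2 of 16 genes called, the secreted protein Plbd1 (18 and 9 UMIs, 34.7-fold, 22.9 to 50.5) and the repressor Bcl6 (7 and 2, 5.15-fold). The corepressor Cbfa2t3 (23 and 17 UMIs, 3.08-fold) and the cytokine receptor Flt3 (13 and 8, 1.90-fold) were above expected and not called. The factors Id2 (8) and Zbtb46 (3) had UMIs in library 1 alone, and Zeb2 was below expected (31 and 6 UMIs, 0.626-fold). The summed lists of conventional dendritic cells were thus above expected, but so was the plasmacytoid list at 1.72-fold, against 1.65-fold for the list shared by both conventional arms, and several defining genes of either arm were at 0. The plasmacytoid list was 1.10-fold in library 2 alone, and 1.16-fold in both when at least 500 genes per nucleus were required. The nuclei are therefore called by their rule.

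**Figure D1:**
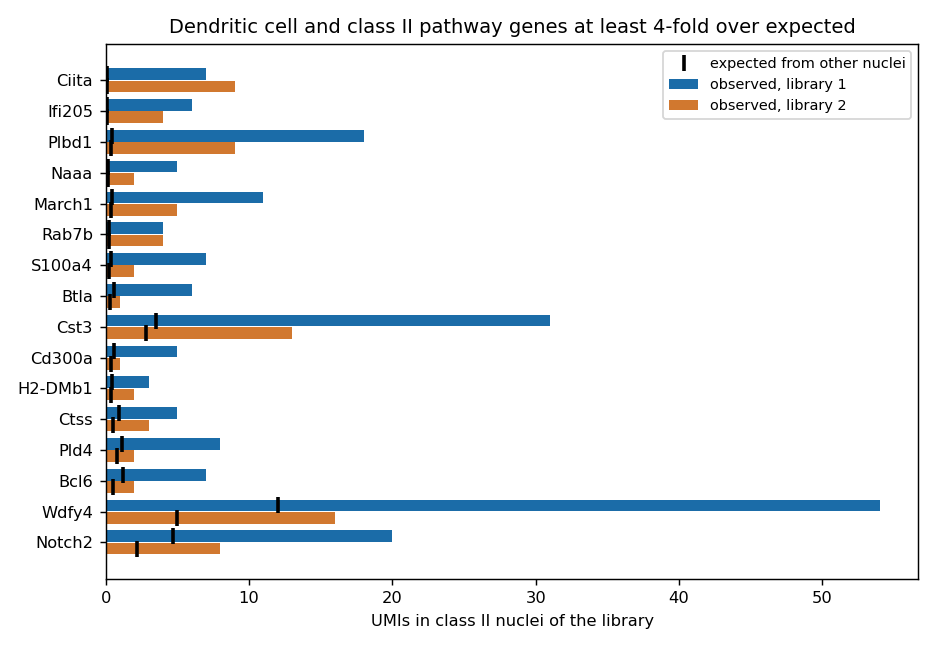
UMIs of genes of the class II pathway and dendritic cell lists that were at least 4-fold over expected (horizontal axis, UMIs summed over the 36 class II nuclei of library 1 in blue and the 32 of library 2 in orange; the black marks give the UMIs expected from other nuclei of that library). Wdfy4 and Cst3 gave the most UMIs, and Ciita is the only gene shown with more UMIs in library 2 than in library 1.

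Of the markers of other cell types, the neutrophil and stem lists were below their expected counts, and the plasmacytoid list was above it. The neutrophil list was 0.507-fold (132 UMIs, 0.424 to 0.601): the granule enzyme Mpo gave 24 and 32 UMIs where 106 were expected, and Prtn3 gave 11 and 10 where 42.2 were expected. The stem and multipotent list was 0.615-fold (24 UMIs, 0.394 to 0.914), with Mecom at 0 where 4.09 UMIs were expected. The B lineage list was 1.01-fold (58 UMIs, 0.764 to 1.30), at 0.902-fold in library 1 and 1.44-fold in library 2, and Bach2 gave 30 of these UMIs (23 and 7), while Cd79a was at 0. Of its 12 genes with at least 1 expected UMI, 2 were above expected, and the median was 0.473-fold. The rule took nuclei with 0 UMIs of Ebf1, Pax5, Ms4a1 and Bank1, so the B lineage values are not independent of it. The monocyte list was 1.21-fold (88 UMIs, 0.974 to 1.5), with Csf1r at 0, F13a1 below expected (9 and 4 UMIs, 0.495-fold) and Ccr2 above (10 and 8, 5.33-fold). Macrophage genes gave 3 UMIs, and C1qa, C1qb and C1qc were at 0. The plasmacytoid list was 1.72-fold (100 UMIs, 1.40 to 2.09) and differed by library, at 1537 against 793 CPM in library 1 and 364 against 331 CPM in library 2. In it the exonuclease Pld4 was called (8 and 2 UMIs, 5.28-fold), Tcf4 gave 35 and 4 UMIs (1.49-fold), and Irf7, Spib and Tlr9 were at 0.

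The chemokine receptor list was 3.29-fold (33 UMIs, 2.27 to 4.62), most of it Ccr2, which guides monocyte and dendritic precursors out of the marrow, and Ccr7, the receptor of mature dendritic cells, was at 0. The interferon response list was 2.78-fold (82 UMIs, 2.21 to 3.45), and 3 of 25 genes were called, the ISG15 protease Usp18 (4 and 1 UMIs), the ADP-ribosyltransferase Parp14 (4 and 5) and the signal transducer Stat2 (6 and 3). Toll-like receptor genes were 1.84-fold in all (21 UMIs, 1.14 to 2.81), but 19 of these UMIs lay in library 1 and the list was 0.462-fold in library 2, and only the Tlr4-like Cd180 was called (7 and 2 UMIs). Genes of costimulation and maturation, such as Cd80, Cd86 and Fscn1, gave 6 UMIs where 6 were expected, all in library 1. MHC class I genes were 1.16-fold (191 UMIs, 1.0 to 1.34), with B2m at 30 and 14 UMIs (1.71-fold). S phase genes were 0.812-fold (0.703 to 0.932), at 0.762-fold in library 1 and 0.901-fold in library 2. In library 2 the interval (1359 to 2132 CPM) held the 1902 CPM of other nuclei. G2/M genes differed by library, at 0.923-fold in library 1 and 1.33-fold in library 2 (1.07-fold in all, 0.963 to 1.18). The remaining lists each gave few UMIs: erythroid genes 10 (0.866-fold), basophil and mast cell genes 7 (0.676-fold), megakaryocyte genes 5 (1.13-fold), and T, NK and innate lymphoid genes 5 (0.549-fold).

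**Figure D2:**
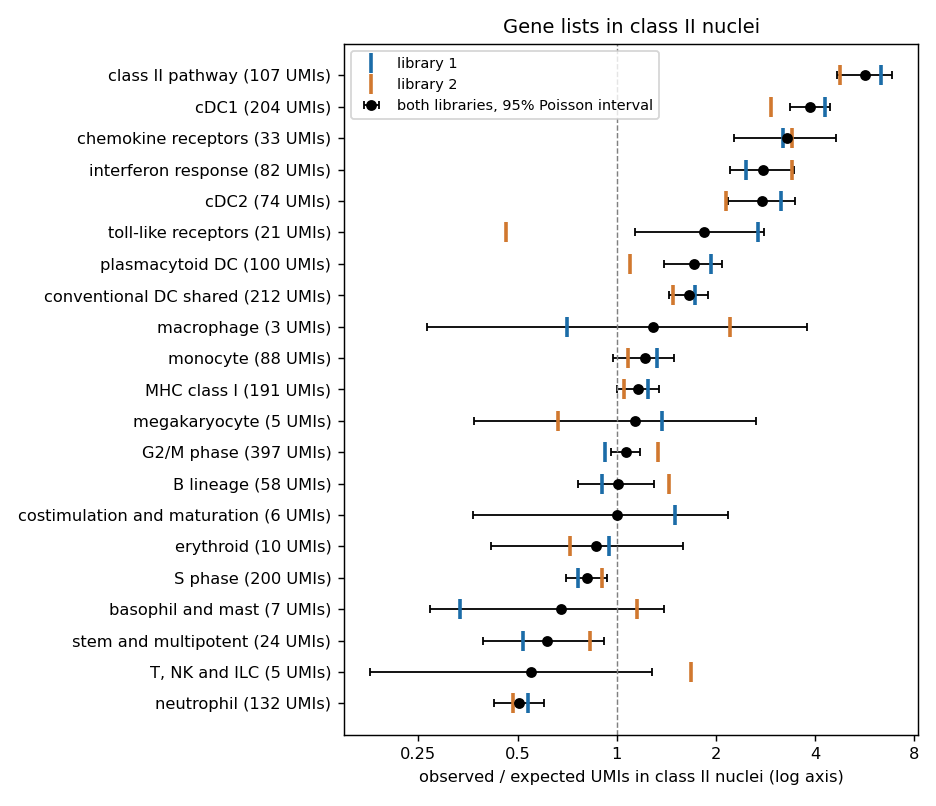
Observed over expected UMIs of each gene list in class II nuclei (horizontal log axis; the number of UMIs stands beside the name of the list; black points with bars give both libraries and the exact 95% Poisson interval, blue and orange marks the single libraries, and a library without UMIs has no mark). The class II pathway is furthest to the right at 5.68 and neutrophil genes furthest to the left at 0.507.

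Other called genes, outside the lists, were picked for naming after their values were seen. Shtn1, a regulator of actin and axon growth (10 and 2 UMIs, 66.6-fold), Rnd3, a small GTPase (4 and 4, 27.5-fold), and Grasp, a scaffold protein (10 and 9, 21.6-fold), were far above expected. The integrin chain Itgb7 gave 8 and 4 UMIs (16.0-fold), the adhesion molecule Alcam 28 and 16 (4.80-fold), and the giant scaffold Ahnak 66 and 19 where 8.51 were expected (9.99-fold). The deacetylase Hdac9 gave 49 and 12 UMIs (7.31-fold), the sphingolipid activator Psap 33 and 15 (6.17-fold), the pore-forming Mpeg1 8 and 6 (8.90-fold) and Gpr183, an oxysterol receptor that positions dendritic cells, 9 and 1 (18.6-fold). Most of these UMIs came from library 1.

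Genes with enough counts to be compared in each library alone were few. A gene was tested here when at least 5 UMIs were expected in the class II nuclei of each library, and it was called when its level (log2 of CPM + 1) differed by 2-fold or more the same way in both. Of 436 genes tested, 4 were called higher (0.917%) and 12 lower (2.75%). Higher were the motor protein Myo1f (20 and 14 UMIs where 7.63 and 5.98 were expected, log2 difference 1.38 and 1.22), beta-actin (Actb, 123 and 77, 1.43 and 1.16), the phosphatase CD45 (Ptprc, 30 and 18, 1.11 and 1.24) and the calcium channel Itpr1 (31 and 16, 1.07 and 1.31). The next in rank, Laptm5, St3gal4, Vim, Stag1, Nup210, Tmsb4x, Spag9 and Lcp1, were under 2-fold in at least 1 library. No list gene was among the 4 genes called higher, but 0 genes of the class II pathway, cDC1 and cDC2 lists could be tested. Of the shared conventional list 2 could be tested.

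Of the 12 genes called lower, the progenitor factor Myb gave 1 and 4 UMIs where 24.1 and 11.4 were expected (log2 difference -4.52 and -1.5). The potassium channel Kcnq5 gave 3 and 1 where 22.7 and 6.28 were expected, Lrmda 5 and 1 where 24.3 and 8.83 were expected, the activation marker Cd69 3 and 2 where 12.4 and 6.07 were expected, Rab44 0 and 1, and the vesicular nucleotide transporter Slc17a9 0 and 2. The calprotectin genes S100a8 (2 and 5 UMIs) and S100a9 (3 and 7), the RNA-binding Msi2, Cdk8, Cpsf6 and Canx made up the rest. No gene passed when 4 or more class II UMIs were required, where 22 genes could be tested. Ptprc and Cdk8 were not called when other nuclei were weighted to the depth of class II nuclei, and with at least 500 genes per nucleus 1 gene was called higher (Actb) and 2 lower. Cdk8 also lost its call when ribosomal locus genes, or the deepest 5% of nuclei, were left out.

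The lists were then followed by the class II sum. In library 1 the cDC1 list was at 542 CPM in nuclei with a sum of 0, 658.5 at 1, 2161 at 2, 2823 at 3 to 4 and 4007 at 5 or more. In library 2 it was at 328, 552, 1121 and 1148 CPM and at 0 in the 2 nuclei with 5 or more. Nuclei with a single class II UMI were thus nearer to those with none than to class II nuclei in both libraries. The class II pathway list was at 201 and 168 CPM at a sum of 0, 243 and 374 at 1, 1212 and 685 at 2, 1210 and 883 at 3 to 4, and 1493 and 1850 at 5 or more. Neutrophil genes went from 2374 and 3373 CPM at a sum of 0 to 1634 and 1307 at 2, then to 852 and 2385 at 3 to 4. Interferon response genes were at 337 and 210 CPM at a sum of 0 and at 685 and 685 at a sum of 2.

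**Figure D3:**
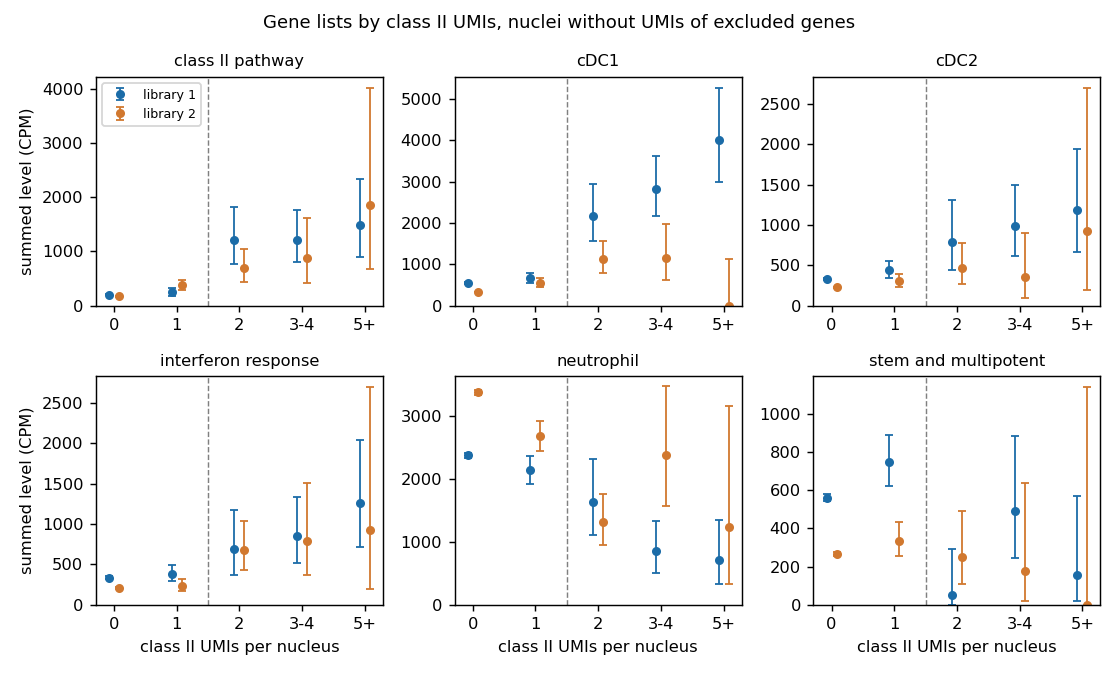
Summed level of 6 gene lists (vertical axis, CPM) by the number of class II UMIs in the nucleus (horizontal axis), in nuclei without UMIs of the excluded genes. Points are the libraries (blue 1, orange 2) with exact 95% Poisson intervals, and the dashed line is the threshold of the rule; the class II pathway and cDC1 lists step up at the line in both libraries.

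Class II nuclei were also set beside those with 2 or more class II UMIs that the rule had left out. The 27 and 9 nuclei with a B cell gene, among them 20 and 6 with the B lineage factor Ebf1, had the B lineage list at 3963 and 2117 CPM against 778 and 343 CPM in class II nuclei, but this list and the rule name genes of the same lineage. Their cDC1 list was at 1446 (1086 to 1887) and 770 (332 to 1517) CPM, against 2870 (2436 to 3358) and 1049 (776 to 1387) in class II nuclei, so the intervals were apart in library 1 and overlapped in library 2. Their class II pathway list was at 1071 and 770 CPM, near the 1277 and 814 CPM of class II nuclei. Ciita was at 134 and 96.2 CPM in them, on 5 UMIs and 1 UMI, against 130 and 193 CPM in class II nuclei. Its level thus did not set class II nuclei apart from them in library 1, and 1 UMI is too few to tell in library 2. Costimulation genes were at 402 and 192 CPM against 111 (40.8 to 242) and 0 (up to 79.0). These levels rest on few UMIs, 6 and 0 in class II nuclei, and the intervals overlapped in both libraries. The 6 nuclei of library 1 with Siglech, the plasmacytoid marker, had the plasmacytoid list at 8426 CPM against 1537 in class II nuclei, the class II pathway at 252 (30.5 to 909) and the cDC2 list at 126 CPM (1 UMI). Here too the choice by Siglech and the plasmacytoid list name genes of the same lineage.

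In open chromatin, class II nuclei had more of each other among their neighbours than other nuclei had. In a latent semantic indexing of the ATAC counts of each library (components 2 to 30), 30.6% and 14.9% of the 30 nearest neighbours of class II nuclei were class II nuclei, where their share of all nuclei was 0.610% and 0.415%. For other nuclei the share among neighbours was 0.485% and 0.380%. A class II nucleus had a median of 12 and 5 such neighbours, with a highest value of 17 and 10, and 4 and 7 class II nuclei had none. With 15 neighbours the shares were 35.0% and 16.0%, and with 60 they were 22.5% and 13%.

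**Figure D4:**
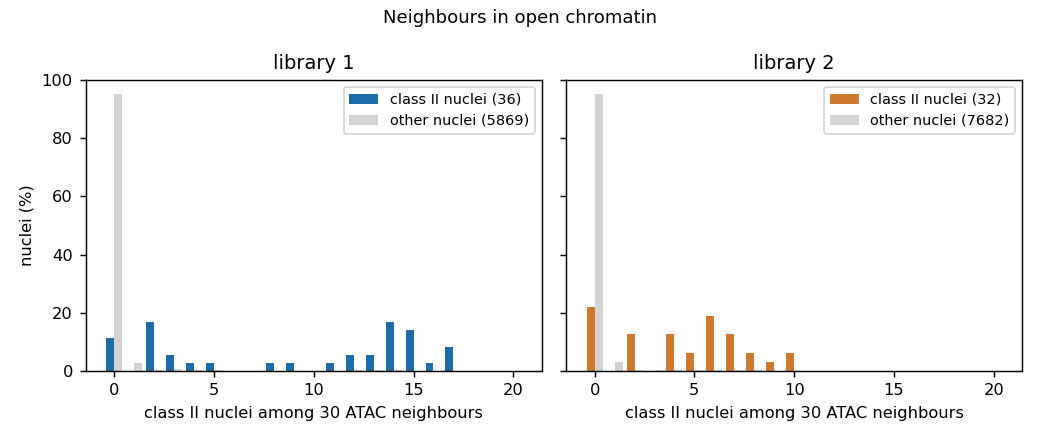
Share of nuclei (vertical axis, %) by the number of class II nuclei among their 30 nearest neighbours in open chromatin (horizontal axis), for class II nuclei (blue in library 1, orange in library 2) and other nuclei (grey). Nearly all other nuclei sit at 0, while class II nuclei spread up to 17 in library 1 and up to 10 in library 2.

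Class II nuclei varied in the number of such neighbours, and in library 2 no gap separated those with many from those with few. With a cut at 6, set after the counts were seen, 22 and 15 had 6 or more and 14 and 17 had 5 or fewer, and near the cut 1 and 2 nuclei had exactly 5 and 0 and 6 exactly 6. The cDC1 list was at 3688 (3075 to 4388) and 1385 (928 to 1990) CPM in the former and at 1430 (950 to 2067) and 776 (474 to 1199) CPM in the latter, with intervals that overlapped in library 2. The cDC2 list ran the other way, at 813 and 382 against 1226 and 543 CPM, with overlapping intervals in both libraries. G2/M genes were at 4966 (4249 to 5768) and 4777 (3887 to 5810) CPM in the former and at 2707 (2028 to 3541) and 2834 (2221 to 3563) CPM in the latter. The plasmacytoid list was lower in the former in library 1, at 610 (377 to 932) against 3166 (2428 to 4059) CPM, so that 62 of its 83 UMIs lay in the 14 nuclei with few such neighbours, and in library 2 it was at 239 and 466 CPM. Neutrophil genes were at 726 and 1385 CPM in nuclei with 6 or more and at 1736 and 1708 CPM in the others. Interferon response genes were at 697 (447 to 1037) and 525 (262 to 940) CPM in nuclei with 6 or more. In the others they were at 1226 (785 to 1824) and 893 (566 to 1340) CPM, with overlapping intervals in both libraries.

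Some nuclei outside the rule had the same surroundings. In all, 36 and 62 other nuclei had 6 or more class II neighbours, and 30 and 42 of them had no class II UMI, while 6 and 3 had a UMI of an excluded gene. Their class II pathway list was at 1124 (874 to 1422) and 757 (583 to 966) CPM, against 195 and 167 CPM in other nuclei with fewer such neighbours, and their cDC1 list was at 1726 and 1348 CPM against 663 and 350. Their plasmacytoid list was at 1352 (1076 to 1675) and 414 (288 to 576) CPM against 790 and 330. Their G2/M list was at 8223 and 4020 CPM against 4468 and 2776. Their interferon response list was at 342 (212 to 523) and 284 (182 to 422) CPM against 361 and 213. Nuclei with such chromatin and class II pathway RNA thus lay on both sides of the UMI threshold. The median depth of these other nuclei was 1703.5 and 1275.5 UMIs, against 1505.5 and 1358 in class II nuclei with 6 or more such neighbours. Their median ATAC counts were 25727 and 15526, against 19533 and 9074 in those class II nuclei. Whether RNA or ATAC depth accounts for the neighbours of these other nuclei, or for their place outside the rule, was not tested.

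At the class II genes themselves, promoter counts were above expected in class II nuclei, though the interval of H2-Ab1 held 1. The nuclei were chosen by RNA of the same 4 genes, so chromatin at these genes is not independent of the rule. A promoter here is the set of peaks within 1 kb of an annotated start, and an ATAC count is a transposase cut, most of which come in pairs, so that intervals were set on pairs. Over the 4 genes of the rule the promoters held 2.87-fold the expected counts (2.35 to 3.50). The promoter peak of H2-Eb1 at chr17:34305448-34306271, around the printed promoter, had 30 and 13 counts where 10.5 were expected in all (4.08-fold, 2.61 to 6.32). The promoter peak of H2-Aa at chr17:34287489-34288376 had 25 and 8 where 10.3 were expected (3.20-fold, 1.92 to 5.28). H2-Ab1 had 19 and 7 counts where 13.9 were expected (1.87-fold, 0.994 to 3.19), and the Cd74 promoter was 3.30-fold over 2 peaks (2.36 to 4.49). Of genes outside the rule, the first promoter of Ciita was open in 10 of 36 nuclei (27.8%) and 2 of 32 (6.25%), against 2.30% and 2.43% of other nuclei, at 9.20-fold (19 and 3 counts, 4.59 to 16.5). It was above expected in both libraries, with most of its counts in library 1.

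The H2-Aa upstream peak, whose centre is printed above, was the called peak open in the most class II nuclei. It covers chr17:34293260-34294178 and was open in 18 of 36 nuclei (50%) and 11 of 32 (34.4%), against 12.9% and 10.8% of other nuclei. Its 56 and 30 counts were 5.80-fold the 14.8 expected (4.20 to 7.82). The Wdfy4 intron peak at chr14:33168417-33169293 was open in 8 and 5 class II nuclei with 21 and 12 counts where 2.82 were expected (11.7-fold, 7.01 to 19.3). Peaks within introns of Clec9a (chr6:129421053-129421892, 14 and 6 counts, 14.1-fold), Batf3 (chr1:191100168-191101018, 15 and 4, 7.77-fold) and Cadm1 (13 and 6, 7.34-fold) were also above expected, and so were a peak 32550 bases downstream of the Irf8 start (chr8:120768463-120769353, 12 and 11 counts, 4.72-fold) and a peak near Zbtb46 (32 and 6, 6.73-fold). A further called peak nearest to Irf8 (chr8:120776909-120777822) was higher still, at 21 and 8 counts (7.93-fold, 4.59 to 13.5). The Batf3, Cadm1 and Zbtb46 peaks had counts in library 2, where the class II nuclei had no UMI of these genes. The promoters of Wdfy4 (1.12-fold) and Irf8 (1.19-fold) were near expected.

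Promoters of the other lists followed a narrower range. The class II pathway promoters were 1.37-fold (1.23 to 1.52), those of cDC1 genes 1.22-fold (1.08 to 1.39) and of cDC2 genes 1.18-fold (1.03 to 1.35), and those of called genes 1.25-fold (1.20 to 1.30), with 86 of 121 above expected. Of all 11313 tested genes with a promoter peak, 49.5% were above expected and the median was 0.996-fold. Above expected were 15 of 17 class II pathway, 13 of 21 cDC1, 11 of 22 cDC2 and 7 of 16 toll-like receptor promoters. Promoters of the shared conventional list were 1.13-fold (1.0 to 1.26), with 9 of 19 above expected, those of the plasmacytoid list 0.980-fold (0.844 to 1.13) and those of toll-like receptors 1.18-fold (1.02 to 1.36). Interferon response promoters were at 0.994-fold (0.887 to 1.11), although the RNA of this list was 2.78-fold. Neutrophil promoters were 0.351-fold (0.231 to 0.528) and stem and multipotent promoters 0.663-fold (0.520 to 0.843). Of the genes that the rule required at 0 UMIs, Ebf1 had 2 and 2 promoter counts where 18.2 were expected and Pax5 had 0 where 4.78 were expected. Ms4a1 had 8 and 3 where 3.12 were expected, and Bank1 had 22 and 16 where 20.9 were expected (1.82-fold, 1.09 to 2.84). Siglech had 9 and 0 where 8.65 were expected.

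Across all peaks, 1413 of 173059 with 100 or more counts were called at 4-fold or more over expected with 10 or more counts in class II nuclei (0.816%). With 4 or more class II UMIs required, which left 11 and 4 nuclei, 153 peaks were called and 27 of them were among the 1413. Called peaks lay in promoters in 7.43% of cases, in introns in 54.9% and between genes in 34.3%, while every 20th tested peak was in a promoter in 16.7%, an intron in 45.5% and between genes in 34.2%. Of the 123 called genes, 22 (17.9%) were the nearest gene to a called peak, against 502 of all 11767 (4.27%). Among called peaks open in 10 or more class II nuclei, the one furthest above expected lay between genes near Gm46560 (25 and 9 counts, 21.0-fold, 12.3 to 33.7). By the rule of 2-fold in each library, among 7103 peaks with 10 or more expected counts in each, 3 were called higher (0.0422%) and 53 lower (0.746%). The 3 were between genes near H2-Ea-ps (chr17:34347432-34348332, 41 and 23 counts where 18.2 and 10.3 were expected), at the promoter of Rab43 (60 and 33, 2.10-fold), a gene that was itself called for RNA (12 and 3 UMIs, 4.83-fold), and in an intron of Tgm2 (50 and 22, 2.51-fold). With 20 expected counts required, 0 peaks were called higher and 1 lower (1347 tested), and with 4 or more class II UMIs 0 and 1 (5 tested), where the Tgm2 peak had no direction shared by both libraries. Lower peaks included the promoter of Mecom, a stem cell factor (4 and 2 counts where 19.0 and 11.4 were expected).

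Motif letters were counted in the 300 bases at the centre of each peak, on both strands. The ETS-IRF composite GGAANNGAA was in 23.4% of called peaks (21.2 to 25.7) and in 12.6% of tested peaks, or 13.6% when these were weighted to the GC content of the called peaks (46.9% against 49.8%). PU.1 letters (GAGGAAGT) were in 17.1% (15.2 to 19.2) against 10.5% with equal GC. These 2 motifs share the letters GGAA, and 4.32% of called peaks held both, against 1.36% of tested peaks. IRF letters were in 14.4% against 12.3%, and RUNX letters (TGTGGTT) in 15.5% against 13.4%. CEBP letters (TTGCNNAA) were in 11.5% (9.85 to 13.2) against 15.7%, and EBF letters (CCCNNGGG) in 6.09% (4.90 to 7.46) against 8.10%. The rule took nuclei with 0 UMIs of Ebf1, while 25.7% and 9.54% of other nuclei had such a UMI. The EBF share is therefore not independent of the rule. Shares of AP-1 (13.2% against 12.2%), E-box (16.1% against 18.0%), NF-kB (GGAANTCCC, 1.42% against 1.59%), X1 box (5.38% against 5.95%) and Y box letters (1.34% against 1.41%) had intervals that held the share with equal GC, and so did AGATAA, searched for the GATA family (13.7% against 15.1%). Among the 53 peaks called lower, CEBP letters were in 20.8% (11 peaks) against 6.54% of the 7100 peaks tested by that rule. E-box letters were also in 20.8% (11 peaks), against 14.2%. PU.1 letters were in 0 against 3.31%, a share too low for 53 peaks to tell 0 from it. The ETS-IRF composite was in 11.3% of the lower peaks against 6.06%, IRF letters in 9.43% against 4.56% and RUNX letters in 9.43% against 3.31%, on 6, 5 and 5 peaks, so the shares of these motifs were above those of tested peaks among lower peaks too, without weighting for GC.

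**Figure D5:**
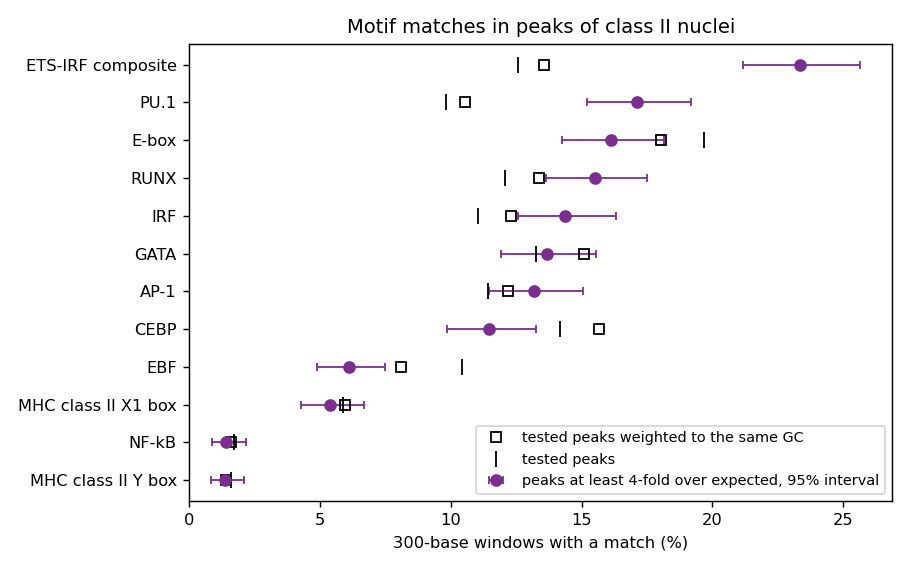
Share of 300-base windows with a match to each motif (horizontal axis, %) in peaks at least 4-fold over expected in class II nuclei (purple points with exact 95% binomial intervals), in tested peaks (black lines) and in tested peaks weighted to the same GC content (open squares). The ETS-IRF composite and PU.1 lie to the right of both references, and CEBP and EBF to the left. The EBF share is not independent of the rule, which left out nuclei with Ebf1 UMIs.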

How the data were processed

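Nuclei of Lin-cKit+ bone marrow cells from 1 Ctrl and 1 Lig pool were profiled for RNA and ATAC. The authors aligned reads to GRCm38 (mm10) and made 1 matrix of both libraries with Cell Ranger ARC 2.0.0 (submitters' processing notes also name Seurat 4.0.3 and Signac 1.3.0). The deposited values are raw counts: UMIs for 32272 genes and ATAC counts for 174339 peaks in 8762 and 10199 barcodes. Of the ATAC entries 82.5% were even, so intervals for peaks were set on pairs of counts. The study's further steps on nuclei were not repeated, and no doublet caller was run; leaving out the deepest 5% of nuclei stands as an alternative.

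The members and the gene lists were chosen with earlier results of these data known. Kept nuclei followed the limits of 200 genes and 1000 to 50000 ATAC counts. Levels are CPM with a pseudocount of 1 on the log2 scale. With 1 library of each kind and suffixes tied to no sample, no p-value was computed. Named genes were the 12 highest and 6 lowest tested genes by the library with the smaller change, and up to 4 genes of each list; since almost no list gene reached 5 expected UMIs, a call on observed over expected counts was added after seeing the data, and list genes, genes and peaks called by it, and the remaining genes called lower, were named after their values were seen. The 9 rule genes were not tested. Latent semantic indexing used peaks open in at least 1% of nuclei. Peaks were annotated with GENCODE vM21 on GRCm38, with 99.6% of gene IDs matched, and sequences came from RefSeq GRCm38.p6. H2-Ea, Marchf1, Amica1, Cd209d2 and Mx1 had no row under these names, and promoter sequences of Cd74, H2-Ab1 and Ciita were not used here. Python 3.11.15, numpy 2.4.6, pandas 2.3.3, scipy 1.17.1, pyfaidx 0.9.0.4 and matplotlib 3.10.9 were used.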

Additional observations from a re-analysis of the deposited data

How the results depend on the processing

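With 4 or more class II UMIs required, 11 and 4 nuclei (0.186% and 0.0519%) were left, and thinned nuclei of library 2 gave 0.198%. With that threshold, 0 genes were called higher and 0 lower (22 tested), 50 genes were 4-fold over expected (24 shared with the 123), 0 peaks were called higher and 1 lower (5 tested), and 153 peaks were 4-fold over expected (27 shared with the 1413). The lists then stood at 8.28-fold (class II pathway), 4.76 (cDC1), 2.03 (conventional DC shared), 0.841 (monocyte), 0.403 (neutrophil), 0 (basophil and mast) and 0 (T, NK and ILC). L1cam, H2-T23, Rpgrip1, Pdrg1, Got1, Slfn2 and Kif21b were at 0 UMIs, and the Tgm2 intron peak, the Gng2 promoter and the peaks nearest D17Wsu92e and Ppp1r21 no longer had a direction shared by both libraries (given the value 0), while the Tmem184b promoter changed direction to -1.39 (log2). With at least 500 genes per nucleus, 1 gene was called higher and 2 lower (84 tested), 56 were 4-fold over expected (40 shared), Got1 was at 0, and the plasmacytoid and basophil lists stood at 1.16 and 0.202. These settings left fewer nuclei or genes. No filter on low counts gave 468 higher and 4484 lower of 19866 genes, and 20 expected counts gave 0 peaks higher and 1 lower (1347 tested). A limit of 3-fold or 6-fold gave 216 or 60 genes and 2612 or 514 peaks, and EBF letters were in 4.86% of the latter. Neighbour shares in library 1 were 35.0% with 15 and 22.5% with 60 neighbours. Other nuclei weighted to the depth of class II nuclei gave 4 genes higher and 13 lower (3 and 11 shared) and 3 peaks higher and 60 lower (3 and 45 shared). Of 126 list values under all alternatives, 117 stayed within the interval of the reported value and 9 moved beyond it. Alternatives for the observed over expected calls were chosen after seeing the data. No paired analysis was possible because the libraries are in no group and each group is 1 sample. Depth limited what could be said of genes at 0, each of which had a floor of 3 counts.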
